A study of Mus musculus with 86 samples.

Results

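The 6 genes described here encode core transcription factors of the nephron progenitors of the embryonic mouse kidney: Six2, Eya1, Sall1, Osr1, Pax2 and Wt1. They were chosen by gene symbol, and all 6 are among the 12360 genes of a table of RPKM values (read numbers scaled by gene length and sequencing depth) for 86 single cells. The cells came from wild-type metanephroi at 12.5 days post coitum (Theiler stage 20, mixed strain background, male and female embryos pooled). Dissected kidneys were combined and dissociated with trypsin, and single cells were caught in a Fluidigm C1 instrument, which amplifies cDNA cell by cell. Capture sites were viewed under a microscope to record those that held a single cell. No label ties a cell to an animal or to a separate pool, so all 86 are treated as 1 sample, which leaves a description over cells without tests or p-values.

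At this stage the branching ureteric bud is surrounded by cap mesenchyme, the progenitor pool that gives rise to nephrons, and by stroma. Progenitors either renew themselves or answer Wnt signals from the bud and become epithelial. Six2 is a homeodomain factor that holds progenitors in the self-renewing state. Eya1 is a phosphatase and coactivator that works with proteins of the Six2 family, and Osr1 is an odd-skipped zinc finger protein already present in the intermediate mesoderm. Sall1 is a zinc finger repressor that recruits the NuRD corepressor complex. Wt1, the Wilms tumour zinc finger protein, is present in the metanephric mesenchyme and later in podocytes, and Pax2 is a paired box factor of both the mesenchyme and the bud.

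In the coordinates of the deposited table (mm9), Six2 lies at chr17:86083608-86087594, Eya1 at chr1:14159039-14300280 and Sall1 at chr8:91551143-91568061. Osr1 lies at chr12:9581248-9588306, Pax2 at chr19:44831884-44910517 and Wt1 at chr2:104966686-105013771. Each has a single row in the table. Six2 is the member around which the co-detection described below is arranged, and the 250 bases before its start are shown as the sequence of its promoter. They are taken from RefSeq (GRCm38.p6, chr17:85688255-85688504, minus strand, written 5′ to 3′), with the match to the CCAAT box in capitals.
Six2 promoter: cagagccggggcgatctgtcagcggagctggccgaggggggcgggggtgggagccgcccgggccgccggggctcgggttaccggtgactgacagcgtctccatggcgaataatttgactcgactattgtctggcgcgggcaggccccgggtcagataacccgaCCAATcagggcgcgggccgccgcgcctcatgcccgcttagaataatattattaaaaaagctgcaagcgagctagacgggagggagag
The CCAAT match lies 87 to 83 bases before the start, and 64.8% of the 250 bases are G or C, against a median of 52.4% over all promoters of the table. CCAAT was found on either strand in 37.4% of 32851 promoters (250 bases before to 50 after a start). The other motifs searched were TATAAA, the MEF3 site TCANGTTNC of Six2 and its relatives, the Wt1 site GCGTGGGNG and the Pax2 site GTCACGC. None of them has a match in the Six2 window, and they were found in 13.6%, 3.23%, 1.90% and 2.09% of all promoters. Of 3 Sall1 windows, 1 holds CCAAT and 1 holds GCGTGGGNG, and the 3 Pax2 windows hold none of the motifs. Windows for Eya1, Osr1 and Wt1 were not used here.

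Detection means an RPKM of 1 or more. Between 3458 and 7100 genes were detected per cell (median 6164), and 5 cells lay more than 3 median absolute deviations below the median. Relative sequencing depth, read from the value that a single read is worth, differed 20.2-fold between the deepest and the shallowest cell, and 8 cells had less than 0.5 of the depth of the median cell. A single Osr1 read corresponded to an RPKM of 0.0805 in the deepest cell and of 1.62 in the shallowest, with 0.247 in the median cell. Over the 86 cells the number of the 6 genes detected had a Spearman rho of 0.221 with the number of genes detected and of -0.0381 with relative depth. The number of genes detected itself had a rho of -0.263 with relative depth. A choice of cells with more genes is thus not a choice of deeper cells. Leaving out the 8 shallow cells, or the 5 cells of few genes, moved none of the members' shares beyond its interval. For Six2, Eya1, Osr1 and Pax2 no choice of so few cells could have done so, and the comparison says nothing about depth for them. No doublet caller was run.

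Sall1 and Wt1 were detected in nearly all cells, Eya1, Six2 and Osr1 in 44 to 54 of the 86, and Pax2 in a minority at low level. Sall1 was detected in 82 of 86 cells (95.3%, exact Clopper-Pearson 95% interval 88.5 to 98.7%) and Wt1 in 80 cells (93.0%, 85.4 to 97.4%). Eya1 was detected in 54 cells (62.8%, 51.7 to 73.0%). Osr1 was detected in 44 cells (51.2%, 40.1 to 62.1%) and Pax2 in 19 cells (22.1%, 13.9 to 32.3%). Six2 was detected in 49 cells (57.0%, 45.8 to 67.6%). Intervals cover counting error only. The median gene of the table was detected in 45.3% of cells.

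Sall1 RPKM ran from 0.123 through a median of 44.5 to 295 and was above 0 in every cell, with a mean of 61.1 ± 56.7 (SD, 86 cells). Wt1 ran from 0 through a median of 37.3 to 256, with a mean of 53.2 ± 50.1. Eya1 ran from 0 through a median of 18.2 to 216, with a mean of 35.5 ± 44.1. These 3 means lie above those of 89.7%, 88.2% and 83.3% of all genes in the table. Six2 ran from 0 through a median of 8.14 to 88.9, with a mean of 20.1 ± 24.9. Osr1 ran from 0 through a median of 1.39 to 174, with a mean of 21.8 ± 36.4. Pax2 ran from 0 through a median of 0 to 56.5, with a mean of 1.51 ± 6.33, above only 15.0% of genes. RPKM is per length, but differences between genes in capture and amplification were not measured, so a comparison of levels between genes is rough. Each mean differed from the next in order by less than the SD of the higher one over cells.

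Within cells the order of the RPKM values, with the same limit to comparing genes, was as follows. Sall1 was above Wt1 in 46 cells and below it in 40, so that neither led. Wt1 was above Eya1 in 58 of 86 cells, and Eya1 was above Six2 in 52 cells and below it in 23, the other 11 being at the same value. Six2 was above Osr1 in 39 cells and below it in 23, although the mean of Osr1 was slightly the higher. Osr1 was above Pax2 in 46 cells and below it in 18.

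Six2 and Osr1 were mostly either at 0 or well above the limit. Six2 was listed at 0 in 30 cells and between 0 and the limit in 7, only 1 cell lay between 1 and 3, and 42 cells were at 10 or more. Its median in the 49 cells that detected it was 31.6, with a coefficient of variation of 0.670. Osr1 was listed at 0 in 37 cells and was at 10 or more in 34, and it was more uneven among the cells that had it (median 28.7, coefficient of variation 0.977). The 5 cells highest in Osr1 held 36.0% of its summed RPKM, against 23.0% for Six2. Eya1 was the exception, with 17 cells above 0 but under the limit, against 15 at 0 and 47 at 10 or more. Pax2 was mostly low, as 10 of its 19 detecting cells lay between 1 and 3, and just 2 were at 10 or more. The highest of these cells, at 56.5, lay far from the next, at 12.1, and the 5 highest cells held 69.3% of the Pax2 sum.

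**Figure D1:**
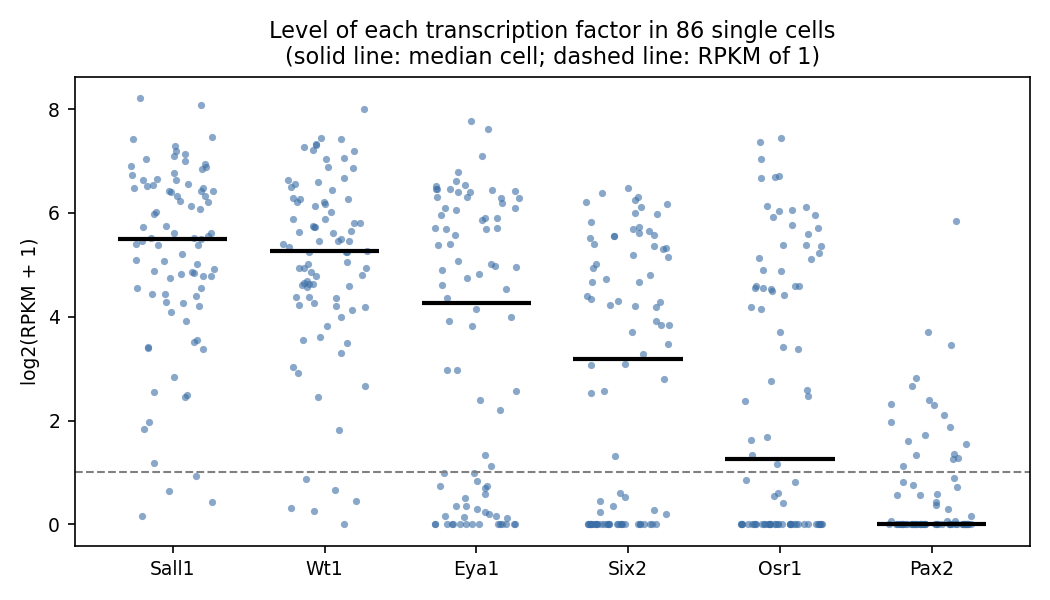
Level of each gene, as log2(RPKM + 1), in each of 86 cells (points, spread sideways at random), with the median cell as a solid line and an RPKM of 1 dashed. Sall1 and Wt1 form a single band, while Eya1, Six2 and Osr1 split into a group of cells near 0 and a group well above the limit, and Pax2 stays low apart from a single cell at 56.5.

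The co-detection of the members asks whether they mark the same cells. Six2, Eya1 and Osr1 were found together more often than their single shares give, while Sall1 and Wt1 were in nearly every cell and so could add little. Of 15 pairs, 14 had more cells with both genes than the product of the single shares, most by a few cells. In the 43 cells at or above the median number of detected genes the count was 11 of 15, and with any RPKM above 0 as detection it was 7 of 15.

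Six2 and Eya1 were detected together in 45 cells, where single shares give 30.8, a ratio of 1.46. Of the Six2 cells 91.8% detected Eya1, and of the Eya1 cells 83.3% detected Six2. Six2 and Osr1 were detected together in 37 cells, where 25.1 are given (ratio 1.48), and Eya1 and Osr1 in 38 cells, where 27.6 are given (ratio 1.38). In the 43 cells with more genes these 3 pairs had 25 cells (18.7 given), 18 cells (13.3 given) and 20 cells (15.9 given). The excess was there too. Eya1 and Pax2 had 15 cells against 11.9 given, and Six2 and Pax2 had 13 against 10.8. The ratio of Six2 with Pax2 fell below 1 in the 43 cells with more genes (0.902) and with detection at an RPKM of 3 or more (0.796). Osr1 and Pax2 had 10 against 9.72, and their ratio was 0.711 in the 43 cells with more genes. Sall1 and Pax2, with 18 against 18.1, was the pair without excess. None of the 44 Osr1 cells lacked Wt1, which by the limit of 3 counts allows a share of up to 6.82%, and Wt1 was missing in 1 of 49 Six2 cells.

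Mean levels of Eya1, Osr1, Sall1 and Wt1 were higher in cells with Six2 than in cells without it. That of Pax2 was lower, through 1 cell. Eya1 averaged 53.1 ± 45.1 RPKM in cells with Six2 and 12.3 ± 30.2 in cells without it. Osr1 averaged 31.0 ± 39.1 in cells with Six2 and 9.46 ± 28.7 in cells without it. Sall1 averaged 73.0 ± 54.8 in cells with Six2 and 45.3 ± 56.0 in cells without it, and Wt1 averaged 62.6 ± 53.4 in cells with Six2 and 40.8 ± 42.9 in cells without it. Pax2 averaged 0.877 ± 1.79 in cells with Six2 and 2.35 ± 9.44 in cells without it, where the cell at 56.5 lies. The Pax2 difference rests on that cell, and detection at an RPKM of 1 went the other way. Of the Pax2 cells 68.4% detected Six2, against 57.0% of all cells, and the rho of Pax2 with Six2 over all 86 cells was 0.227. Each of these differences in mean is smaller than the SD over cells of the higher group. Over all 86 cells Six2 had a Spearman rho of 0.605 with Eya1 and of 0.547 with Osr1, and Eya1 had 0.511 with Osr1. These cells come from the same dissociated kidneys and differ in depth. Among the cells that detected both genes, the rho was -0.0128 for Six2 with Eya1 (45 cells), 0.0963 for Six2 with Osr1 (37 cells) and -0.0550 for Eya1 with Osr1 (38 cells). Over the 10 pairs without Pax2 it lay between -0.145 and 0.212. For Pax2 it was -0.498 with Wt1 and -0.391 with Sall1 (18 cells each). These are descriptions over cells, and the relation seen over all cells was near 0 among those that detected both genes of the 3 pairs.

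**Figure D2:**
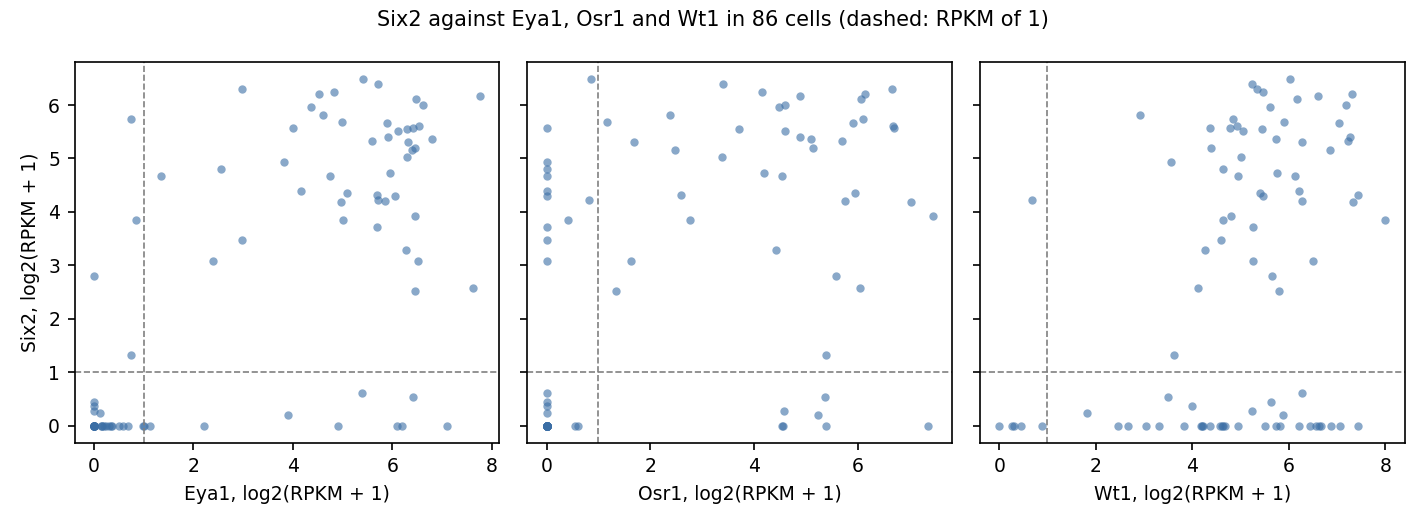
Six2 (vertical axis) against Eya1, Osr1 and Wt1 (horizontal axes), all as log2(RPKM + 1), with each point a cell and dashed lines at an RPKM of 1. Eya1 and Osr1 fall mostly into the corners with both genes or neither (rho 0.605 and 0.547 over 86 cells), and the cells in the upper right corner show no visible slope (rho -0.0128 and 0.0963), while Wt1 is present on both sides of the Six2 limit.

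**Figure D3:**
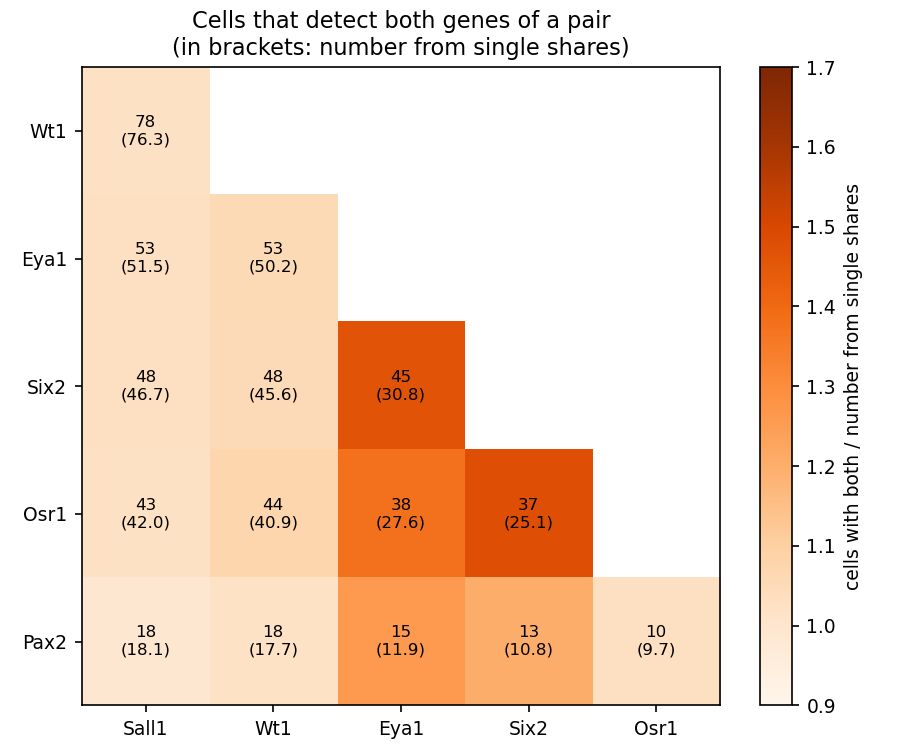
Cells that detect both genes of each of the 15 pairs, with the number from single shares in brackets and their ratio as colour. The ratios of 1.38 to 1.48 are those of the pairs among Eya1, Six2 and Osr1, and pairs with Sall1 or Wt1 lie near 1.

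The number of members per cell was accordingly split into a low and a high part. All 6 genes were detected in 8 cells, where single shares give 3.08, and 5 genes in 32 cells, where 18.4 are given. The middle was thin, with 4 genes in 12 cells (32.6 given) and 3 genes in 10 cells (24.0 given). A further 19 cells had 2 genes (7.25 given), 4 cells had 1 (0.649 given) and 1 cell had none. The most frequent set was every gene but Pax2, in 26 cells, followed by Sall1 with Wt1 alone, in 18 cells. Six2, Eya1 and Osr1 as a triple, picked after their pair counts were seen, were all detected in 34 cells (15.7 given) and all missing in 25 cells (6.72 given), with 1 of them in 9 cells and 2 in 18. The median number of genes detected was 6240 in the 34 cells and 5966 in the 25, and the part of this difference in the counts was not tested. Sall1 averaged 84.2 ± 56.3 RPKM in the cells with the triple and 42.6 ± 59.6 in the cells without any of it, and Wt1 averaged 73.4 ± 59.0 and 38.8 ± 47.6.

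**Figure D4:**
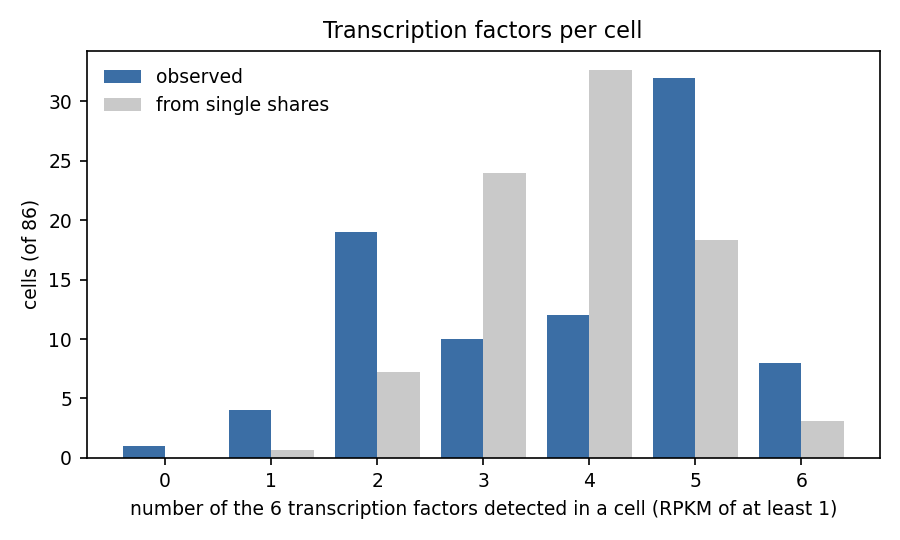
Number of cells (vertical axis) by how many of the 6 genes they detect, observed in blue and from single shares in grey. Cells with 2, 5 and 6 genes are more frequent than given (19, 32 and 8 cells) and cells with 3 and 4 genes rarer (10 and 12).

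The pairs can be set beside the likeness of each member to all other genes. Spearman rho was computed for the 10650 genes other than the member itself that were detected in at least 10 cells. For Six2, 3 of the other 5 members had a rho of at least 0.3 (Eya1, Osr1 and Sall1 at 0.304), where 2.6% of all genes did. Eya1 was in place 8 and Osr1 in place 17. For Eya1 the same held for Six2, Sall1 and Osr1 (2.88% of all genes), for Osr1 for Six2, Eya1 and Sall1 (1.06%), and for Sall1 for Six2, Eya1 and Osr1 (0.77%), with Eya1 in place 4 of the Sall1 list. Wt1 had no member at 0.3 (0.338% of all genes), its nearest being Six2 at 0.296 in place 44. Pax2 had none either (1.58%), and with Osr1 its rho was -0.0649. No member was at -0.3 or less with another, where 1.28% of all genes were with Six2, 1.4% with Eya1, 0.676% with Sall1, 0.432% with Osr1, 0.808% with Pax2 and 0.469% with Wt1.

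The gene most like Six2, Eya1, Sall1 and Osr1 was the same, Crym, which encodes the thyroid hormone binding protein mu-crystallin, with rho of 0.706, 0.710, 0.447 and 0.560. Six2 was next followed by Eno3, the muscle enolase (0.659), and Moxd1 (0.654). Eya1 was followed by Robo2, a Slit receptor (0.660), and Eno3 (0.649). Osr1 was followed by Six2 itself and then Tpbg (0.516), and Sall1 by the matrix proteoglycan gene Vcan (0.419) and the calcium sensor gene Stim2 (0.415). Without the cells of few genes the first place for Sall1 went to Sema3f, and without bud-list cells to Aagab. Wt1 had weak neighbours, led by Wdr45 (0.403), Zfp119b (0.391) and Eno3 (0.386). Those of Pax2 were Fdps, an enzyme of isoprenoid synthesis (0.545), Crip2 (0.497) and the chaperone gene Hsp90ab1 (0.493). By Pearson r of log2 values the first place went to Col18a1 for Pax2, with none of these 3 genes named again, and to Eno3 for Wt1, with 1 of 3 named again. Like the mean log2(RPKM + 1) of the 6 members were Crym (0.828), Robo2 (0.704), Spock2 (0.685), Eno3 (0.683) and Tpbg (0.657). With the number of genes detected in a cell, the rho of these genes was at most 0.189, apart from Fdps at 0.302.

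Other genes were set beside the members by lists, through their rho with that mean. Its median over 10645 genes was 0.0275, and 2.88% of genes were at 0.3 or more. Of 12 other cap mesenchyme genes, 10 were at 0.3 or more (median 0.404), led by Crym and Spock2 and including Cited1 (0.453), a transcriptional coregulator of the uninduced cap. The exceptions were Gdnf, the ligand that draws the bud (0.0746), and Tmem100 (0.158). Crym and Spock2 are both in this list and among the nearest genes, so these are not separate results. The lists were also chosen with earlier results of these data known. Their counts beside those of all genes are therefore no independent evidence.

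Among relatives of the members, 9 of 16 could be ranked (median 0.198), and 2 were at 0.3 or more. These were Eya4 (0.393) and Eya2 (0.341), coactivators of the Eya1 family, detected in 30 and 13 cells. Eya3, detected in 65 cells, was at -0.287, and Six5, in 44 cells, at -0.0218. Sall2 was in 69 cells (0.198) and Six4 in 38 (0.0641), while Sall4 and Osr2 were each in 7 cells. Six3, Six6, Sall3 and Pax3 were not analysed here. The 12 NuRD genes, subunits of the complex that Sall1 recruits, were detected in 31 (Mbd2) to 86 cells (Rbbp4) and had rho values near those of all genes (median -0.0182, none at 0.3 or more). The extremes were Mbd3 (0.221), Rbbp4 (0.197), Hdac2 (-0.150) and Hdac1 (-0.149).

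The 13 ranked stroma genes were all below 0 (median -0.264) and 6 of them were at -0.3 or less, where 1.61% of all genes were. Col1a2 (-0.482) and Snai2 (-0.465) were lowest, and Tcf21 (-0.00439) and Meis2 (-0.0103) highest. Foxd1, the forkhead factor of stromal progenitors, was at -0.172. The 8 ranked induced nephron genes had a median of -0.0556, from Pax8 (0.292) and Bmp2 (0.178) to Lhx1 (-0.293) and Ccnd1 (-0.287), with Wnt4 at 0.161. The 6 ranked bud genes had a median of -0.107, from Hoxb7 (0.163) and Krt8 (0.00872) to Gata3 (-0.288) and Calb1 (-0.246). Of 7 endothelial genes 1 was analysed, Emcn (-0.262, in 10 cells), and of 9 blood genes 1, Alas2 (-0.220, in 18 cells). Of 6 neural genes 4 were analysed, with Elavl4 at 0.483, in 36 cells. Of the podocyte genes, Synpo was detected in 5 cells. The summed RPKM of each of these 4 small lists was 0 in at least 1 cell and at most 86.3.

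Where the members stood in cells of other lineages was described with marker lists that contain none of them. A cell was put on the bud side when it detected at least 50% of 10 ureteric bud genes, among them Ret, Wnt11, Calb1, Gata3, Hoxb7, Cdh1, Epcam, Krt8 and Krt18. The 7 cells on that side held 8 to 10 of the genes and the other 79 held at most 4, with 2 cells at 4. For 14 stroma genes, 52 cells held 7 to 14 and 34 cells held 1 to 5. Some stroma genes were in most of the 86 cells and so part the cells little: Meis1 and Meis2 in 83 each, Tcf21 in 75 and Foxd1 in 59. Only 1 cell met both limits, and 28 met neither. These are ranges of marker counts and not cell types.

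Bud-list cells had less Sall1, Wt1 and Osr1 on average than the other cells. Sall1 was detected in 4 of 7 bud-list cells and in 78 of 79 other cells. Its RPKM ran from 0.123 through a median of 20.7 to 66.8 in bud-list cells and from 0.906 through 46.1 to 295 in the others, so the groups overlapped. Its mean was 23.2 ± 25.4 in bud-list cells and 64.4 ± 57.5 in the others. The log2 ratio of (mean + 1) was -1.44 for Sall1, -1.20 for Wt1 and -1.80 for Osr1, while 21.9% of all genes were at -1 or below, so such values were common in this comparison. With 1 in 3 of the bud genes as the limit, Sall1 was at -0.59. Six2 (-0.79), Eya1 (-0.11) and Pax2 (0.75) lay within 1, and 9.62% of all genes were at 1 or more. Pax2 was at 1.26 without cell 73, the highest in Pax2, and at 1.07 with a pseudocount of 0.1. Pax2 was detected in 3 of 7 bud-list cells and 16 of 79 other cells. Median genes detected were 6488 in bud-list cells and 6153 in the others, and the part of this in the ratios was not tested. The 7 cells were not alike. Cells 3 and 74 had Six2, Eya1, Sall1, Osr1 and Wt1 all below the limit, with Pax2 at 4.25 and 0.0397. Cell 57, with 9 bud genes, had all 6 members, Six2 at 50.4 and Wt1 at 58.4 among them. Cell 53 had 5, including Eya1 at 84.4 and the second highest Pax2 of all cells, 12.1.

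Stroma-list cells had less Six2 and Eya1 on average than the other cells. Six2 was detected in 23 of 52 stroma-list cells and in 26 of the 34 other cells, and ran from 0 through a median of 0.194 to 82.6 RPKM in stroma-list cells and from 0 through 37.1 to 88.9 in others. The ranges overlapped, and the means were 11.8 ± 20.7 in stroma-list cells and 32.8 ± 25.7 in others, a log2 ratio of -1.40. Eya1 was detected in 25 of 52 stroma-list cells and 29 of 34 others, and averaged 23.9 ± 38.4 in stroma-list cells and 53.4 ± 46.9 in others, a log2 ratio of -1.13. At -1 or below were 6.67% of all genes, and these 2 of the 6 members, while none of the members was at 1 or more, where 10.7% of genes were. With 1 in 3 of the stroma genes as the limit, Six2 was at -0.79, Osr1 at -0.69, Eya1 at -0.52 and Sall1 at -0.48, so that none was past the limit. Median genes detected were 6266 in stroma-list cells and 6032 in others. Sall1 was detected in 51 of 52 stroma-list cells and in 31 of 34 others (log2 ratio -0.61), and Wt1 in 49 of 52 and in 31 of 34 (-0.41). Osr1 (-0.38) and Pax2 (-0.02) also lay within 1, and Pax2 was at -0.84 without cell 73. Pax2 was detected in 6 of 52 stroma-list cells (11.5%, 4.35 to 23.4%) and in 13 of 34 others (38.2%, 22.2 to 56.4%), and the cell highest in Pax2 is a stroma-list cell.

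The 52 stroma-list cells can be parted by Six2. In the 29 without Six2, Sall1 was detected in 28 (96.6%) and Wt1 in 26 (89.7%), at medians of 27.5 and 24.0 RPKM, whereas Eya1 and Osr1 were each detected in 5 (17.2%). In the 23 with Six2, Eya1 was detected in 20 and Osr1 in 18, and Sall1 and Wt1 in all 23. In the 23 Six2 cells on neither list, Eya1 was detected in 22 and Osr1 in 18. In the 5 cells on neither list without Six2, Eya1 was detected in 3 and Osr1 in 1, and Sall1 and Wt1 in all 5. By the single stromal gene Foxd1, 32 cells detected it together with Six2. Foxd1 was detected in 59 of the 86 cells and Six2 in 49, so their single shares alone give many cells with both. The 32 cells do not exceed the number from single shares. Over all cells the rho of Foxd1 with Six2 was -0.145. Over all 52 stroma-list cells Six2 and Osr1 were each detected in 23 and Eya1 in 25. The name of nephron progenitor factors thus does not stand for absence from cells that meet this limit of stroma genes. As some of these genes were in most cells, the limit does not make such cells stromal.

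Early nephron formation was looked at through Wnt4, the signal that drives the change to epithelium, and Lhx1, a factor of the renal vesicle. Osr1 was lower and Pax2 higher in the 19 cells with either gene than in the other 67. Osr1 was detected in 8 of 19 cells with Wnt4 or Lhx1 and in 36 of 67 other cells, and its RPKM ran from 0 through a median of 0 to 33.5 in cells with either gene and from 0 through 4.17 to 174 in other cells. The ranges overlapped, but values above 33.5 were found in other cells alone. Its mean was 5.38 ± 10.4 in cells with either gene and 26.4 ± 39.7 in other cells, a log2 ratio of -2.10, with 1.22% of genes below it. At -1 or below were 10.9% of all genes, and Osr1 alone of the members. Pax2 was detected in 9 of 19 cells with either gene (47.4%, 24.4 to 71.1%) and in 10 of 67 other cells (14.9%, 7.40 to 25.7%), and ran from 0 through a median of 0.124 to 56.5 RPKM in cells with either gene and from 0 through 0 to 12.1 in other cells. Its means were 4.93 ± 12.8 in cells with either gene and 0.539 ± 1.63 in other cells, a log2 ratio of 1.95, where 6.2% of genes were at 1 or more. Cell 73, with 56.5, carries much of that mean: without it the Pax2 mean is 2.07 ± 2.88 in 18 cells with either gene, and the log2 ratio 0.996. By the mean of log2 values it was 0.96. Without the 5 of the 19 cells that are also bud-list cells, Pax2 was detected in 7 of 14 cells with either gene and 9 of 65 others, and Osr1 in 7 of 14 and 35 of 65. Median genes detected were 6533 in cells with either gene and 6095 in other cells, and the part of this in the shares was not tested. By each gene alone, Osr1 was detected in 6 of 11 Wnt4 cells and in 3 of 13 Lhx1 cells, against 38 of 75 cells without Wnt4 and 41 of 73 without Lhx1. Six2 (-0.17), Eya1 (-0.25), Sall1 (-0.02) and Wt1 (0.42) lay within 1, and Six2 was detected in 12 of the 19 cells.

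Cited1 cells had more Six2, Eya1 and Osr1. Each of the 3 genes was detected in 29 of 35 Cited1 cells (82.9%, 66.4 to 93.4%), against 20 (Six2), 25 (Eya1) and 15 (Osr1) of the 51 other cells. Eya1 ran from 0 through a median of 57.0 to 216 RPKM in Cited1 cells and from 0 through 0.998 to 91.7 in others. Six2 ran from 0 through 29.6 to 82.6 in Cited1 cells and from 0 through 0.177 to 88.9 in others. Osr1 ran from 0 through 22.4 to 174 in Cited1 cells and from 0 through 0 to 163 in others. The medians stood well apart while the ranges overlapped. Eya1 averaged 58.1 ± 51.6 RPKM in Cited1 cells and 20.1 ± 30.0 in other cells, and the log2 ratio was 1.49 for Eya1, 1.34 for Six2 and 1.18 for Osr1. At 1 or more were 4.46% of all genes, and these 3 of the 6 members. Sall1 (0.11) and Wt1 (0.42) differed less, and Pax2 was at -0.72, with none of the members at -1 or below, where 6.72% of genes were. Pax2 was at -0.06 without cell 73 and at -1.19 with a pseudocount of 0.1. Median genes detected were 6166 in Cited1 cells and 6162 in other cells.

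**Figure D5:**
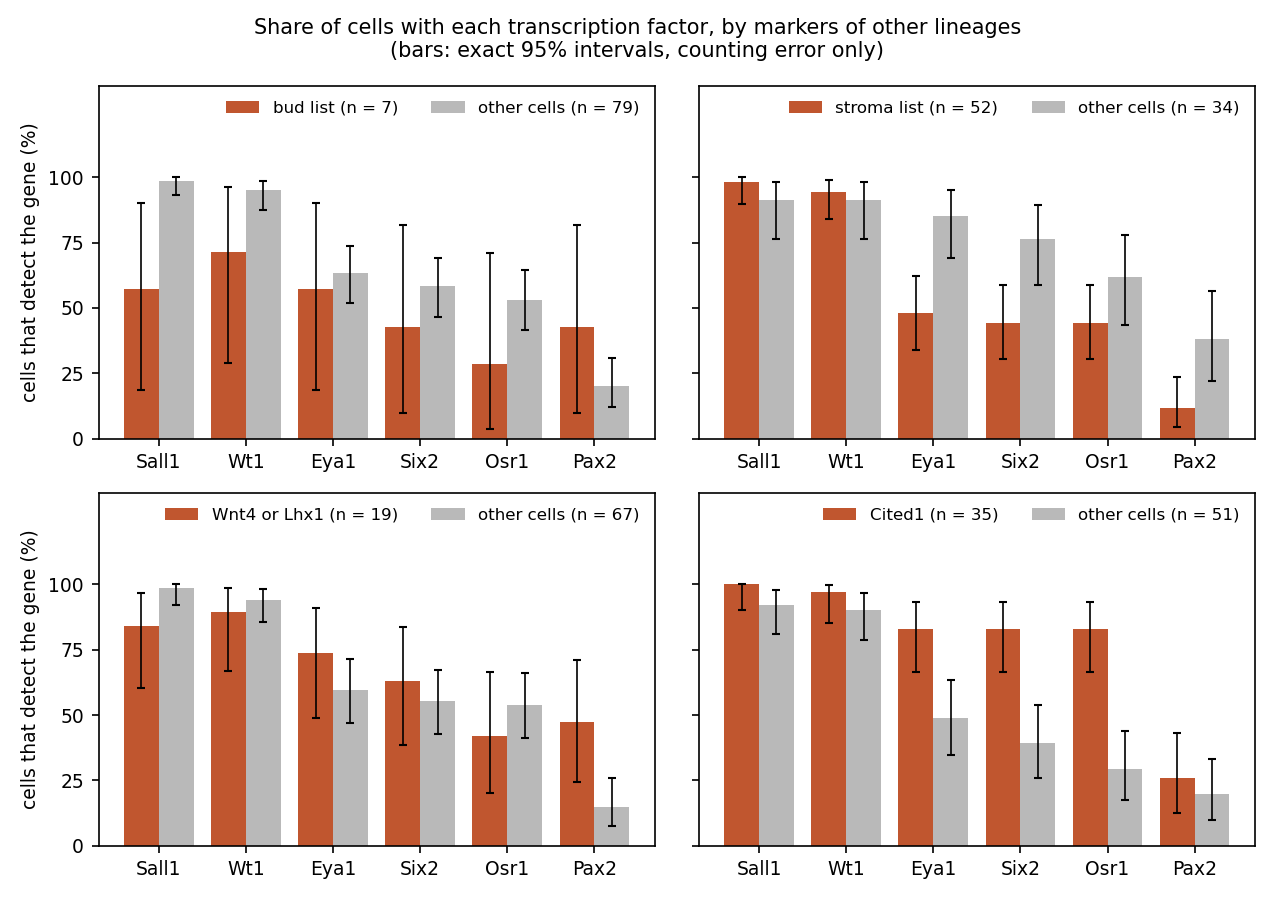
Share of cells (vertical axis, percent) that detect each gene, in cells with a marker or marker list (orange) and in the other cells (grey), with exact 95% intervals. Cited1 cells differ most in Eya1, Six2 and Osr1 (82.9% each), stroma-list cells in Eya1, Six2 and Pax2, and cells with Wnt4 or Lhx1 in Pax2 (47.4% against 14.9%).

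Among cells with Six2, the share with Osr1 differed most with Cited1. Osr1 was detected in 10 of 20 Six2 cells without Cited1 (50.0%, 27.2 to 72.8%) and in 27 of 29 Six2 cells with it (93.1%, 77.2 to 99.2%), at medians of 1.02 and 23.2 RPKM. The means lay closer, at 21.4 ± 37.5 without Cited1 and 37.7 ± 39.4 with it, less apart than either SD. The ranges overlapped, from 0 to 130 without Cited1 and from 0 to 174 with it. Eya1 was found in 19 of these 20 and 26 of these 29 cells, Sall1 in 19 of 20 and in all 29, and Wt1 in all 20 and in 28 of 29. The median number of genes detected was 6536.5 in Six2 cells without Cited1 and 6153 in those with it. The authors' deposited table of 450 genes, a comparison of their class six2only over their class six2andcited1, lists Osr1 and none of the other 5 members. The authors' deposited table gives Osr1 a signed fold of -17.3, the third lowest of 183 lower genes. That fold rests on the authors' own classes, cells and values, so it is not the same measure as the shares and means given above. The 35 cells of that table are also among the 86, so it is no independent sample. In its 35 cells Osr1 RPKM ran from 0 through a median of 23.5 to 192 and was 0 in 7 cells in the authors' deposited table. Where both tables have a value above 0, those of the authors' deposited table were 1.10 to 1.78 times those of the first, and no reason for this is given in the sources used here.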

How the data were processed

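RNA was measured in 86 cells, treated as 1 sample. The authors deposited RPKM values per gene and cell, and a second table of 450 genes with RPKM in 35 of these cells and a signed fold (a score, negative where lower), per the file headers. The submitters' processing notes list TopHat 1.4.1, DESeq and mm9, with no role given. The first table also gives the number of cells above an RPKM of 3, as counted by the authors, which is not used in a result. Columns were matched to cells by the number in their titles, and no column of another sample was found. Read totals are not given. Relative depth was taken from low values (RPKM under 2), where a gene's values in a pair of cells are multiples of 1 read. Of 49 Osr1 values above 0, 40 were whole reads within 0.05, so not all values are whole reads and counts were not rebuilt. All of 6 housekeeping genes looked at had a value in every cell.

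Detection was an RPKM of at least 1. Numbers from single shares multiply the shares of the genes. Ratios are log2 of (mean RPKM + 1) over (mean RPKM + 1), with 1 as the pseudocount. Likeness is Spearman rho over cells, for genes detected in at least 10 cells. The members and lists were chosen with earlier results of these data known. Named are the members, the 3 genes most like each, the 5 most like their mean, the markers used, and up to 4 genes of each list by highest and lowest rho. Other relatives of the members, and single cells, were named after their values were seen. Some genes of the lists are not reported here by name. Alternatives changed the detection limit, the cells kept, the scaling, the averaging and the likeness measure. The calculations were tested on simulated data. Python 3.11.15, numpy 2.4.6, pandas 2.3.3, scipy 1.17.1 and matplotlib 3.10.9 were used.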

Additional observations from a re-analysis of the deposited data

How the results depend on the processing

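Of 404 recalculated values, 376 stayed within the interval or SD of the first value or on the same side of the limits. Some of them could hardly do otherwise, so this count is no measure of stability. The 6 mean levels were held against an SD over cells that was close to the mean or above it. With any RPKM above 0, Sall1 was in every cell, so its pairs had a ratio of 1 whatever the other gene did. Of these 376, 23 lay on the other side of a ratio of 1 or a log2 ratio of 0, with first values of 0.994 to 1.06 for ratios to single shares and of -0.25 to 0.11 for log2 ratios. No paired analysis was possible because all cells form 1 group and no result comes from a test. The share of cells depends on the detection limit. With any RPKM above 0 it was 82.6% for Eya1, 100% for Sall1, 38.4% for Pax2 and 98.8% for Wt1. At 3 or more Pax2 was in 10.5% of cells, and at 10 or more Sall1 was in 83.7%, Osr1 in 39.5% and Pax2 in 2.33%. Without bud-list cells Sall1 was in 98.7%. With any RPKM above 0, cells with Six2, Eya1 and Osr1 were 1.56 times, and cells with Six2 and Eya1 1.12 times, the number from single shares, and 7 of 15 pairs exceeded that number. At 10 or more, cells with none of Six2, Eya1 and Osr1 were 2.32 times it. The excess of Six2 with Pax2 turned round at 3 or more (0.796), at 10 or more (0, with Pax2 in 2 cells) and in cells with more genes (0.902), and that of Eya1 with Pax2 at 10 or more (0.915). Osr1 with Pax2 lay below 1 with any RPKM above 0 (0.957), at 3 or more (0.717), without bud-list cells (0.940) and in cells with more genes (0.711). With 1 in 3 genes of a list as the limit, the log2 ratio was -0.59 for Sall1 in bud-list cells, and -0.79 for Six2 and -0.52 for Eya1 in stroma-list cells. For Pax2 in cells with Wnt4 or Lhx1, averaging log2 values gave 0.96. Leaving out the cell highest in Pax2, a setting chosen after seeing the data, gave 0.996. Of 23 named nearest genes, 15 were named again without cells of few genes, 15 without bud-list cells and 17 by Pearson r. The causes were not tested.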

Other observations

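The 86 cells showed 20 of the possible sets of the 6 genes. Among the 7 cells with Osr1 but no Six2, 4 detected Eya1, and all 7 detected Wt1. The 4 cells that detected a single member had Sall1 in 3 cases and Pax2 in the other. The single cell with none was a bud-list cell. In the cell highest in Pax2 (cell 73), Lhx1 was detected and Wnt4 was listed at 0, while Six2 and Osr1 were at 0, Sall1 at 17.5 and Wt1 at 7.21.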
